A study of Mus musculus with 22 samples.

Results

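The miR-7 family is represented on the nCounter mouse miRNA panel by 2 probes, mmu-miR-7a and mmu-miR-7b, out of 566 mouse miRNA probes and 626 probes in all. Both were taken by name, without star strands, and were followed through 22 mouse samples in 5 groups. The control fallopian tubes (CT, 5 samples) came from uninduced mice that carried floxed Brca1 or Brca2 together with further engineered alleles, none of them recombined. In the doxycycline-induced tubes (FT, 5 samples) and in the tumors (M, 5 samples), a doxycycline-dependent Cre driven from Pax8 had removed 1 or both copies of Brca1 or Brca2 and had recombined the further alleles. All of M are titled metastases, M1 to M4 from the peritoneum and M6 labelled as an ovarian tumor. Control plasma (CS2 to CS4, 3 samples) was from the same animals as CT2, CT3 and CT4, and plasma of induced animals (TS1 to TS4, 4 samples) from those of FT2, FT3, FT4 and FT5. The label for the source of TS says serum, and its title and tissue say plasma. Pax8 marks secretory cells of the tubal epithelium, whereas the RNA came from tissue with all its cell types. Genotypes were mixed within every group.

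miR-7 is an ancient miRNA that is abundant in neurons and in endocrine cells, such as the islet cells of the pancreas, and reported targets include the growth factor receptor gene Egfr. The circular RNA Cdr1as carries many binding sites for miR-7, and miR-671 directs the cleavage of Cdr1as. In mouse, the same mature miR-7a is made from more than 1 gene, and miR-7b from a separate gene.

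The mature sequences are shown because they set what the 2 probes can tell apart. They are from RefSeq (GRCm38.p6), are written 5′ to 3′, and have the seed (bases 2 to 8, which pair with targets) in capitals.
miR-7a-5p: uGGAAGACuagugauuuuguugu
miR-7b-5p: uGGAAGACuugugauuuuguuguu
The first sequence is encoded on the plus strand at chr7:78888295-78888317 (Mir7-2), where no other gene of the table lay over it and the nearest coding gene was Aen. It is also encoded on the minus strand at chr13:58392841-58392863 (Mir7-1), within the span of Hnrnpk. The second is encoded on the plus strand at chr17:56243017-56243040 (Mir7b), where no other gene lay over it and the nearest coding gene was Fem1a. Whether the sites in these spans are exonic or intronic was not analysed here. The 2 miRNAs share the seed GGAAGAC, and of 441 panel miRNAs matched by name to a RefSeq mature sequence no other had it. Over the 23 bases that can be compared, 22 are identical and the difference is A10U, counted from the 5′ end with the base of miR-7a first. miR-7b has 1 further base at its 3′ end. A count for miR-7a cannot be assigned to Mir7-1 or Mir7-2. How far each probe also captures the other miRNA was not tested.

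The assay counts fluorescent barcodes, and each sample carries 8 negative hybridization controls with no target. Total miRNA counts were 70164 to 598321 per tissue sample and 18350 to 269005 per plasma sample. A miRNA was taken as above background in a sample when its deposited count exceeded the mean plus 2 SD of these controls. miR-7a was above background in 11 of 15 tissue samples (2 of 5 CT, 4 of 5 FT and 5 of 5 M) and in 1 of 7 plasma samples. miR-7b was above background in 1 of 15 tissue samples, CT4, and in 0 of 7 plasma samples. Therefore miR-7a was measurable mainly in the induced tubes and tumors, and the values of miR-7b were close to the level of the controls nearly throughout.

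**Figure D1:**
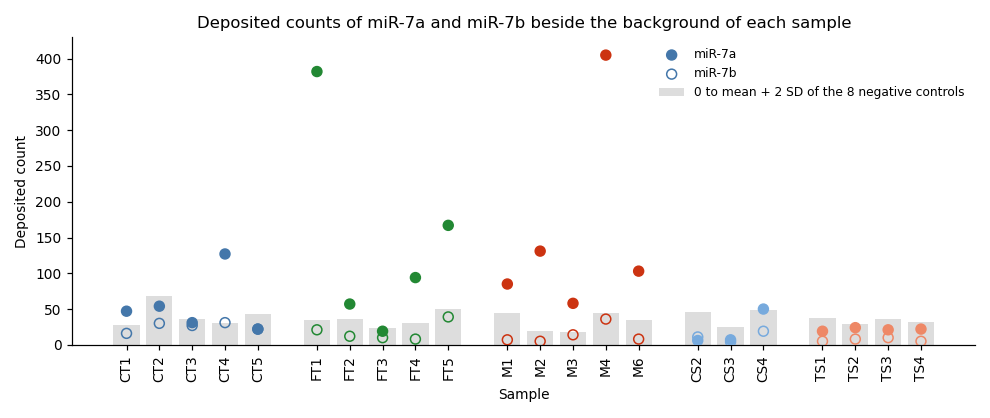
Deposited counts (linear axis) of miR-7a (filled circles) and miR-7b (open circles) in each of the 22 samples, coloured by group. Grey bars run from 0 to the mean plus 2 SD of the 8 negative controls of that sample; miR-7a stands above the bar in all 5 M samples, and miR-7b only in CT4.

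Fold changes below are from edgeR, with counts scaled by a geometric mean, that of the top 100 miRNAs in tissue and of the top 30 in plasma. A miRNA was called at an adjusted p (Benjamini-Hochberg over all 566 miRNAs) under 0.05. In control tubes the normalized counts of miR-7a were 51.4, 35.4, 30.7, 94.5 and 51.5 in CT1 to CT5. In induced tubes they were 133, 135, 41.1, 187 and 91.0 in FT1 to FT5. FT1, FT2 and FT4 lay above all CT samples, FT5 fell just under CT4, and FT3 lay within the CT range. The deposited count of FT3 was 19, which is not above its background. Those of CT2 (54), CT3 (31) and CT5 (22) were not above theirs either, so the CT values were in large part near background.

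The mean of miR-7a was 52.7 ± 25.2 (SD, n = 5) in CT and 117 ± 54.6 (SD, n = 5) in FT, and 4 of 5 FT samples were above the CT mean. By edgeR the log2 fold change was 1.15 (SE 0.50), against a median of 0.15 over all miRNAs. miR-7a was not called (edgeR adjusted p = 0.611), in a comparison where edgeR called 0.177% of all miRNAs (1 of 566). Its unadjusted edgeR p was 0.0298. An exact permutation test (two-sided, on the log2 values) gave p = 0.0556, and the smallest p this design allows is 0.00794. The difference between CT and FT thus did not pass the test, and its 95% interval ran from 0.12 to 2.18 on the log2 scale before any adjustment over miRNAs. In these bulk samples, a different number of cells of a type and a different amount of RNA per cell cannot be told apart.

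miR-7a was higher in the tumors than in control tubes. Its normalized counts were 227 in M1, 122 in M2, 160 in M3, 979 in M4 and 70.3 in M6. The 4 peritoneal metastases lay above every CT sample, whereas the ovarian tumor M6 lay below CT4. M4 was 4.30 times as high as the next tumor, M1.

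The mean in M was 312 ± 377 (SD, n = 5). The edgeR log2 fold change of M over CT was 2.55 (SE 0.66, a 5.88-fold difference, adjusted p = 0.0151), and all 5 tumors were above the CT mean. edgeR called 14.5% of all miRNAs in this comparison (10.2% higher in M), and the median log2 fold change was 0.29. Among the 133 better measured miRNAs (mean count 50 or more), edgeR called 44.4%, and miR-7a stood at place 23 from the highest log2 fold change downward. The exact permutation p was 0.0159, or 0.101 after adjustment over all miRNAs. Without M4 the log2 fold change fell to 1.44 (adjusted p = 0.0408), and without CT3 it was 2.41 (adjusted p = 0.0532), so that the call was lost. It was also lost with quantile normalization and limma (1.86, adjusted p = 0.0537), with scaling to the positive ligation controls (2.19, adjusted p = 0.0890) and after adjustment of the methods' t-test (2.03, adjusted p = 0.164).

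Marker miRNAs of several cell types differed between these groups as well. Of the marker miRNAs found on the panel, 4 of 5 for ciliated epithelium and 3 of 5 for smooth muscle and stroma were lower in M than in CT by edgeR, which called 4.24% of all miRNAs lower. The summed normalized count of the ciliated list was 27.9 to 88.3 in M and 312 to 3767 in CT, and that of the muscle list was 626 to 3821 in M and 4713 to 13280 in CT. For epithelium (the miR-200 family and miR-141), 1 of 5 was lower, and the sum was 242 to 42010 in M, with M4 highest, and 9285 to 11037 in CT. For leukocytes 1 of 5 was higher, as were 10.2% of all miRNAs (sums of 967 to 6301 in M and 593 to 1164 in CT). For erythrocytes 1 of 4 was higher (2233 to 14358 in M and 2881 to 4771 in CT). For endothelium 1 of 2 was higher (7887 to 19897 in M and 4224 to 6683 in CT), and for liver 1 of 3 (64.2 to 587 in M and 66.2 to 93.7 in CT). No marker had a count of 0, since the lowest deposited count was 1. The part of these lists in the miR-7a result was not tested.

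Between induced tubes and tumors, miR-7a overlapped, since 41.1 to 187 in FT spanned M2, M3 and M6. The edgeR log2 fold change of M over FT was 1.40 (SE 0.78, adjusted p = 0.691, interval -0.18 to 2.99), in a comparison where edgeR called 1.59% of all miRNAs. Without M4 it was 0.30 (edgeR adjusted p = 0.999). The study had tubes and tumors from the same mouse in some cases, which the labels do not identify, so these samples were treated as separate. The order of the tissue means was therefore CT, FT and M, in which neither neighbouring pair passed the test, whereas CT against M did.

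**Figure D2:**
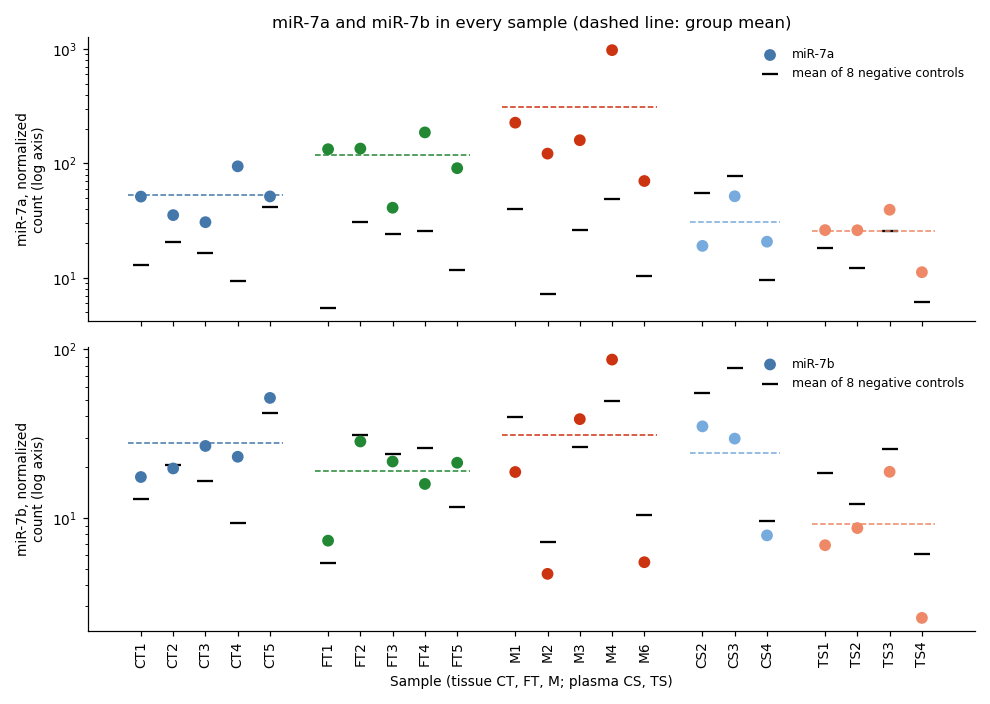
Normalized counts (log axes) of miR-7a (upper panel) and miR-7b (lower panel) in each sample, with group means as dashed lines and the mean of the 8 normalized negative controls as black bars. miR-7a rises to 979 in M4, while miR-7b lies around the control mean in most samples.

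miR-7b did not show the pattern of miR-7a. Its normalized counts were 17.5, 19.7, 26.7, 23.1 and 51.5 in CT1 to CT5, and 7.33, 28.4, 21.6, 15.9 and 21.3 in FT1 to FT5. In the tumors they were 18.7 in M1, 4.66 in M2, 38.6 in M3, 87.0 in M4 and 5.46 in M6. The 3 groups overlapped, and the highest value of all was again in M4, where the deposited count of 36 was not above background.

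The means of miR-7b were 27.7 ± 13.8 in CT, 18.9 ± 7.85 in FT and 30.9 ± 34.2 in M (SD, n = 5 each). For FT over CT, the edgeR log2 fold change was -0.56 (adjusted p = 0.759, interval -1.58 to 0.47). For M over CT it was 0.10 (edgeR adjusted p = 0.932, interval -1.28 to 1.48), and this sign turned under several other scalings. It was 0.68 for M over FT (edgeR adjusted p = 0.993, interval -0.72 to 2.08). No difference in miR-7b was detectable at these counts. Over the 15 tissue samples, log2 miR-7b had r = 0.78 with the normalized negative controls and miR-7a had r = 0.31, as a description, since all values share the scaling of their sample.

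Within a sample, the deposited count of miR-7a was above that of miR-7b in 14 of 15 tissue samples, and in CT5 both were 22. The ratio of miR-7a to miR-7b was 1 to 4.10 in CT (median 1.8), 1.9 to 18.2 in FT (median 4.75) and 4.14 to 26.2 in M (median 12.1). The ratio does not depend on the scaling of a sample. It is not a ratio of molecules, because the capture of the 2 probes was not calibrated here and the miR-7b counts were near background. The difference in ratio between groups was not tested.

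In plasma, miR-7a did not separate the groups. Its normalized counts were 19.1, 51.7 and 20.7 in CS2 to CS4, and 26.2, 26.1, 39.4 and 11.2 in TS1 to TS4. All but 1 of the 7 values came from counts at or under background, CS4 with a count of 50 being the exception. The edgeR log2 fold change of TS over CS was -0.17 (adjusted p = 0.917, interval -2.02 to 1.67), against a median of -0.89 over all miRNAs, and its sign turned under other scalings.

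miR-7b in plasma was 34.9, 29.6 and 7.88 in CS2 to CS4, and 6.89, 8.70, 18.8 and 2.55 in TS1 to TS4. The groups overlapped through CS4, and no sample was above background. For TS over CS, the edgeR log2 fold change was -1.35 (adjusted p = 0.570, interval -3.24 to 0.55). edgeR called 0% of all miRNAs in plasma, with 42 at an unadjusted p under 0.05, whereas DESeq2 called 12 and limma 0. The smallest exact permutation p for 4 samples against 3 is 0.0286, and the values were 0.8 for miR-7a and 0.171 for miR-7b. The change in plasma minus the change in tube was -1.30 (SE 0.86, edgeR adjusted p = 0.537) for miR-7a and -0.77 (SE 0.95, edgeR adjusted p = 0.687) for miR-7b on the log2 scale. Every plasma sample came from a mouse whose tube was also in this test, which the test did not take into account.

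**Figure D3:**
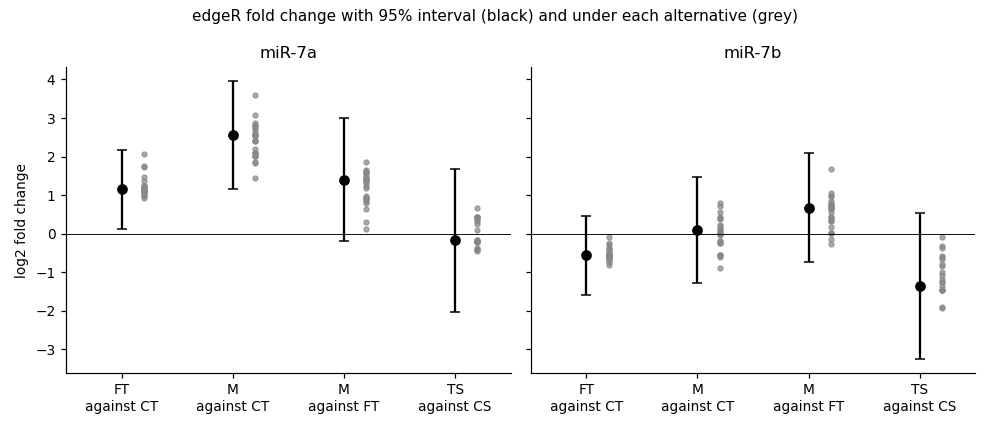
edgeR log2 fold changes (black points) with 95% intervals for miR-7a (left) and miR-7b (right) in the 4 comparisons; grey points are the values under each alternative processing or with a sample left out. Every value of miR-7a for M against CT lies above 0, from 1.44 to 3.60, whereas those of miR-7b for M against CT lie on both sides of 0.

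Other miRNAs that are known from neurons and endocrine cells were read beside miR-7a, as a list of 11 from general knowledge, all on the panel. In M against CT edgeR called 2 of 11 higher and 1 lower, beside 10.2% higher and 4.24% lower among all miRNAs, and the median log2 fold change of the list was -0.27, against 0.29 over all miRNAs. In FT against CT no member passed, the lowest edgeR adjusted p being 0.759 and the median -0.37. Members of the list thus went in different directions in the tumors.

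miR-132, which is induced by neuronal activity and is also found in other cells, was higher in every tumor than in any CT sample, as were 7.42% of all miRNAs. Its normalized counts were 2084, 625, 2551, 454 and 258 in the tumors (M1 to M4 and M6), and 76.5 to 161 in CT. In edgeR this was a log2 fold change of 3.52 (SE 0.65, adjusted p = 0.00119), and 3.73 without M4 (adjusted p = 0.000325). Among tumors, miR-132 was highest in M3 and M1, and miR-7a in M4.

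miR-9, a miRNA of the nervous system, rested on a single tumor. It was 4425 in M4 and 10.2 to 29.4 in the other 4 tumors, with 1.49 to 28.1 in CT. Outside M4, the deposited counts in these groups were not above background (5 to 15 in the other tumors and 2 to 22 in CT). By edgeR the log2 fold change was 6.24 (SE 1.65, adjusted p = 0.0158), but 0.42 without M4 (adjusted p = 0.663).

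miR-375, a miRNA of pancreatic islets and other endocrine and epithelial cells, went in opposite directions in M4 and in the other tumors. It was 4978 in M4 and 13.8 to 28.9 in the other 4 tumors, whereas CT lay between them at 259 to 913. The deposited counts in M1, M3 and M6 were 9, 5 and 25, which are not above background, and the 31 in M2 was. With all 5 tumors the edgeR log2 fold change was 0.69 (adjusted p = 0.708), and without M4 it was -4.88 (adjusted p = 1.53e-05). The size of that fall thus rested on tumor values near background.

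miR-129-3p, a neuronal miRNA, was lower in M, at a mean of 17.8 ± 11.6 against 70.9 ± 29.3 in CT (SD, n = 5 each, edgeR log2 fold change -2.08, adjusted p = 0.00576). Its values in M were near background, since the mean normalized negative controls were 7.22 to 49.2 in M. The 7 remaining members (miR-124, miR-129-5p, miR-153, miR-128, miR-212, miR-184 and miR-218) had edgeR adjusted p-values of 0.0953 to 0.705. The pair from the Cdr1as circuit, miR-671-5p and miR-671-3p, had edgeR adjusted p-values of 0.449 and 0.213 in M against CT, with deposited counts of 2 to 50.

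**Figure D4:**
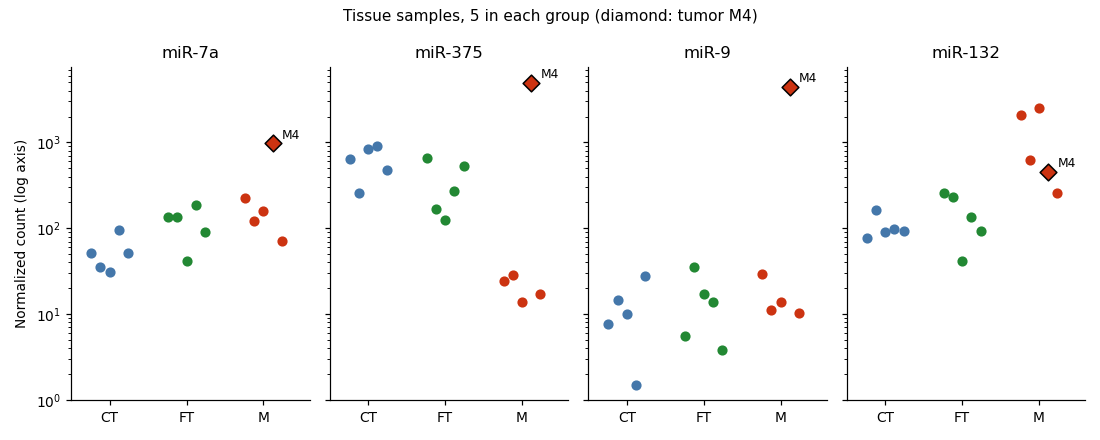
Normalized counts (log axis) of miR-7a, miR-375, miR-9 and miR-132 in the 15 tissue samples, 5 each in CT, FT and M; each point is a sample and the diamond is tumor M4. M4 is highest for miR-7a (979), miR-375 (4978) and miR-9 (4425) but not for miR-132 (454).

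M4 was the tumor in which both members were highest, although its miR-7b count of 36 was not above background. Of the 97 miRNAs above background in M4, it had the highest normalized count of the 15 tissue samples in 12 and of the 5 tumors in 30. The same was not counted for other samples, so these numbers do not show that M4 was unusual. M4 also had the highest mean of normalized negative controls in tissue (49.2, against at most 41.9 in CT and 31.1 in FT). The part of the scaling in its high values was not tested. Ranked by the ratio of M4 to the highest of the other tumors, miR-375 and miR-9 came first and miR-7a stood at place 12. The deposited count of miR-7a was 405 in M4 and 382 in FT1. Divided by the mean of the negative controls of the sample, that count was 19.9 in M4 and 24.6 in FT1. The place of M4 above FT1 in miR-7a thus depended on the scaling. M4 carried a deletion of 1 copy of Brca2.

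The Brca genotypes of the 10 induced tissue samples did not sort miR-7a into separate ranges. With both copies of Brca1 or Brca2 deleted (4 samples) it was 135 to 227. With 1 copy deleted (6 samples) it was 979 in M4 and 41.1 to 133 in the others. The overlap by number of copies thus rested on M4 alone, and FT1 (133) lay just under FT2 (135). It was 70.3 to 135 in the 3 Brca1 samples and 41.1 to 979 in the 7 Brca2 samples. These splits mix tubes and tumors and were not tested.

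The miRNAs whose pattern was most like that of miR-7a were sought by Pearson r of log2 normalized counts over the 15 tissue samples, among 140 miRNAs (mean count 50 or more). They were miR-98 (r = 0.83), let-7i (r = 0.78), miR-804 (r = 0.76), miR-1198 (r = 0.73) and miR-25 (r = 0.72), against a median r of -0.04. miR-98 and let-7i belong to the let-7 family, and miR-25 to the family of miR-92. These samples include CT and M, so a pattern like that of miR-7a already carries part of that difference. All 5 were called higher in M than in CT, where edgeR called 10.2% of all miRNAs higher. Among the 133 better measured miRNAs of that comparison, 44.4% were called in either direction. The edgeR log2 fold changes were 2.03 for miR-98, 2.63 for let-7i, 4.17 for miR-804, 2.79 for miR-1198 and 2.86 for miR-25. In CT, miR-804 and miR-1198 were low (mean normalized counts 29.0 and 31.0), so they passed the filter on mean count through FT and M. The calls of these 5 are therefore no separate support. The points share groups and the scaling of each sample, so these values are descriptions. For miR-804 the value rested in part on M4, since r was 0.57 without it. The geometric mean of 4 housekeeping mRNAs, scaled in the same way, had r = 0.76 with miR-7a and ranged from 392 to 1257 in CT, 240 to 14449 in FT and 2187 to 16169 in M. The part of mRNA content in the miR-7a result was not tested.

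**Figure D5:**
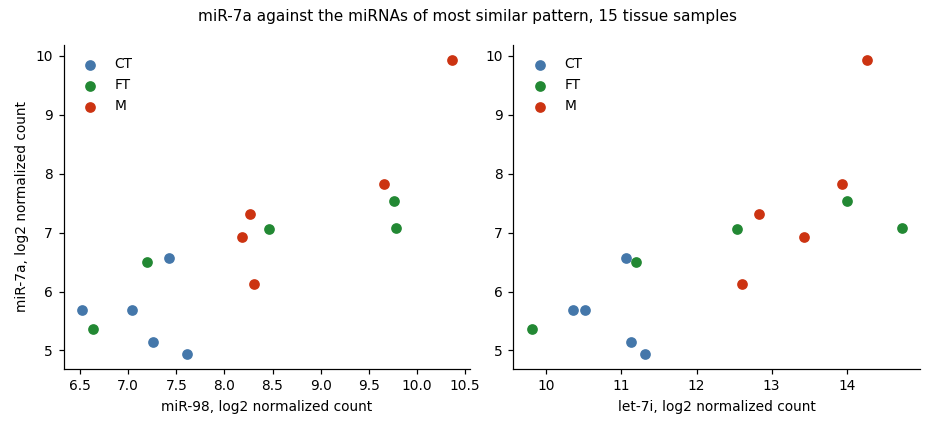
log2 normalized counts of miR-7a against those of miR-98 (left, r = 0.83) and let-7i (right, r = 0.78), one point for each of the 15 tissue samples, coloured by group. CT samples lie at the lower left and tumors at the middle to upper right. FT samples spread over both regions and, for let-7i, beyond them. FT3 (normalized let-7i count 897) lies below every CT sample and FT2 (27178) above every tumor.

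miR-7b was most like miR-142-5p (r = 0.66), miR-1965 (r = 0.58), miR-9 (r = 0.56), miR-1966 (r = 0.55) and miR-146b (r = 0.53). All of these were below its r of 0.78 with the negative controls, and for miR-9 r was 0.23 without M4. miR-9 passed the filter on mean count through M4 alone, with a deposited count of 1831 there and 2 to 22 in CT and FT. The 2 members themselves had r = 0.26 with each other over the tissue samples.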

How the data were processed

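The authors deposited raw barcode counts from the NanoString nCounter miRNA V1.5 assay (100 ng RNA from tissue, 10 ng from plasma). Their nSolver 3.0 normalization is not in these counts and was repeated. Each sample was divided by a geometric mean, that of the top 100 miRNAs (tissue) or top 30 (plasma), without background subtraction. Groups were compared by the quasi-likelihood test of edgeR 4.0.16 (R 4.3.3), in which these means served as library sizes. All 566 miRNAs were tested, with Benjamini-Hochberg adjustment and a threshold of 0.05. Exact permutation tests went through every split of the samples with numpy 2.4.6, and scipy 1.17.1 adjusted their p-values. The edgeR step was tested on simulated data with changes larger than those edgeR gave for miR-7a. That test does not speak to smaller changes or to a single outlying sample. Alternatives were TMM, median-of-ratios, miR-425, quantile and ligation control scaling, subtraction of negative controls, DESeq2 1.42.0, limma 3.58.1, filters on mean counts under 20 or 50, the methods' t-test, a pseudocount of 10, a joint fit of the tissue groups, a block on replicate numbers and the removal of each sample in turn. Named miRNAs were the members, the 5 most like each over tissue, and lists from general knowledge. The members and lists were chosen with earlier results of these data known, and the samples sharing replicate numbers were refitted without the block as an alternative chosen after seeing the data. No comparison was paired. CT against FT or M, and CS against TS, are of different mice, and the labels do not tie tumors to tubes. CS2 to CS4 share mice with CT2 to CT4, and TS1 to TS4 with FT2 to FT5. The test of plasma minus tube ignored this. The further engineered alleles of these mice are not reported here.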

Additional observations from a re-analysis of the deposited data

Results flagged for a closer look

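In 8 checks of a member in a group of 4 or 5 samples, 2 samples stood apart, in that the gap to the nearest sample, divided by the range of the group, was above the 95% critical value of Dixon's test (0.71 for 5 samples). The checks used normalized counts without logarithms, and log2 values were not checked. Chance gives about 1 in 20 such groups where values follow a normal distribution, which was not tested for these counts. The first was miR-7a in M4, at a normalized count of 979 with the next tumor at 227 (gap over range 0.827). The second was miR-7b in CT5, at 51.5 with the next control tube at 26.7 (gap over range 0.728). The deposited count of miR-7b in CT5 was 22, which is not above its background.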

How the results depend on the processing

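miR-7a for M against CT was positive under all 26 alternatives (log2 fold change 1.44 to 3.60, adjusted p 0.00273 to 0.164). Its adjusted p passed in 20, and not with quantile normalization and limma (1.86), ligation scaling (2.19), the methods' t-test or exact permutation test (2.03, or 1.84 with a pseudocount) or without CT3 (2.41); with 1 sample left out it was 1.44 to 2.88. miR-7a for FT against CT (0.93 to 2.06) and for M against FT (0.13 to 1.86) kept their direction and were not called. miR-7b for M against CT turned negative with TMM (-0.24), median-of-ratios (-0.24), quantile (-0.59), DESeq2 (-0.18), limma (-0.55), the methods' t-test (-0.55) and the exact permutation test (-0.55, or -0.20 with a pseudocount), and was -0.88 to 0.42 with 1 sample left out. miR-7b for M against FT was -0.14 with quantile normalization and -0.26 to 0.98 with 1 sample left out. miR-7a in plasma turned positive with TMM (0.36), median-of-ratios (0.45), miR-425 (0.27), quantile (0.66), ligation scaling (0.44), subtraction (0.41) and DESeq2 (0.44), and was -0.44 to 0.34 with 1 sample left out. The cause was not tested. The other results kept their direction and, except under the block, were not called.

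With replicate numbers as a block, miR-7b in plasma was called (-1.47, adjusted p = 0.0462), and miR-7a for M against CT was 2.42 (adjusted p = 0.00759); no other call of a member changed. The numbers do not pair these samples (r of deviations -0.37 to 0.32). The block moved calls from 1 to 0 (FT against CT), 132 to 69 (M against CT), 11 to 1 (M against FT) and 0 to 96 (plasma) over the same samples.

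For M against CT 82 miRNAs were called (70.7% higher in M), 160 with TMM (52.5% higher), 162 with median-of-ratios (54.3%), 80 with miR-425 (87.5%), 101 with quantile (51.5%), 48 with ligation controls (81.2%), 133 with subtraction, 184 with DESeq2 (55.4%), 32 with the methods' t-test (56.2%) and 52 with CT, FT and M together (80.8%), 50 to 101 with 1 sample left out. The median log2 fold change moved over the scalings from 0.29 to between -0.02 and 0.66, in FT from 0.15 to between -0.04 and 0.64, and in plasma from -0.89 to between -0.38 and 0.38. For FT against CT the count of 1 became 2 with TMM or median-of-ratios, 6 with subtraction, 9 with DESeq2 and 0 with miR-425, quantile or ligation scaling, limma, the methods' t-test or a filter, and 0 to 12 with 1 sample left out. For M against FT the count of 9 became 39 with DESeq2, 23 in the joint fit, 5 with limma, 4 with quantile, 2 with miR-425 and 0 with the methods' t-test, and 4 to 33 with 1 sample left out. Filters removed miR-7b in part; its and plasma counts were near background.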

Other observations

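Among the plasma samples, miR-375 stood out in TS2, at a normalized count of 709 against 19.3, 50.7 and 3.57 in TS1, TS3 and TS4, and 31.8, 111 and 9.95 in CS2 to CS4. The deposited count in TS2 was 652. The edgeR log2 fold change of TS over CS was 2.06 (SE 0.92, adjusted p = 0.542). miR-7a in TS2 was 26.1, within the range of the control plasma. TS2 came from the mouse of FT3, the induced tube with the lowest miR-7a (41.1) and the lowest miR-375 (125).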
